A study of Caenorhabditis elegans with 2 samples.

Results

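The genes described here are 9 genes of the Caenorhabditis elegans intestine, out of 19973 protein-coding genes on the 6 nuclear chromosomes. They are elt-2 and elt-7, which encode GATA transcription factors of the gut, and 7 genes for products that the differentiated gut uses. The gut genes are ges-1, ifb-2, act-5, pept-1, asp-1, cpr-1 and mtl-2. They were listed by name and function, with earlier results of these data known. For each gene, every deposited region was taken whose summit lay inside the gene or within 5 kb of one of its transcript starts, called the gene window here. That gave 8 regions of the optimal list, 37 of the pooled list, 48 of replicate 1 and 48 of replicate 2.

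The data came from chromatin immunoprecipitation and sequencing (ChIP-seq) of eGFP-tagged NHR-10 in whole animals at the L4 larval stage. All samples formed 1 group of 2 biological replicates of strain OP239, genotype unc-119(ed3) III; wgIs239, with males and females pooled. Every animal sampled therefore carried both the unc-119 mutation and the nhr-10 insertion, and no second condition was compared. The authors' lists on the ce11 build held 17447 pooled, 21319 replicate 1 and 22317 replicate 2 regions. The optimal list was the strongest part of the pooled one. The equally many strongest regions of a replicate list are called its top set here. The promoter that drives the tagged protein is not given in the sources used here. Whole larvae were used, so a region cannot be assigned to intestinal cells. Each region carries a signal value of the authors whose scale is not stated. It was used only to rank regions within 1 list, where rank 1 has the highest signal, and a place is the rank as a percent of the list. The depth of the libraries is unknown. With 1 group, no test was made.

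The worm intestine is a tube of epithelial cells that secretes digestive enzymes, takes up nutrients through a microvillar brush border, and stores fat. ELT-2 is the main GATA factor of the differentiated gut and ELT-7 acts alongside it. Both bind sites around the sequence TGATAA, which is found near many gut genes. NHR-10 is a nuclear hormone receptor, a class of DNA-binding proteins that has expanded widely in nematodes, and is known for its part in propionate breakdown when vitamin B12 is scarce.

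An optimal region lay in the gene window of 5 of the 9 genes, elt-2, ifb-2, act-5, asp-1 and cpr-1, against 9.31% of all protein-coding genes. In the narrower promoter window, which reached 1000 bp before and 200 bp past a transcript start, it was 3 of 9, elt-2, act-5 and asp-1, against 2.82% of all genes. The windows of elt-7, ges-1, pept-1 and mtl-2 held no optimal region. The pooled list reached all 9 gene windows, but it also reached 69.8% of all gene windows. In promoter windows it reached 7 of 9, all but elt-7 and ges-1, against 28.1% of all genes. With the top set of a replicate in place of the optimal list, 4 of 9 gene windows held a region in replicate 1, against 9.34% of all genes. In replicate 2 it was also 4 of 9, against 8.97% of all genes, but the genes were not all the same. Both top sets reached ifb-2, act-5 and cpr-1, while asp-1 was reached in replicate 1 only and elt-2 in replicate 2 only. The cpr-1 regions differed, with rank 898 upstream of the gene in replicate 1 and rank 335 past its end in replicate 2.

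The DNA around the summits is shown for 7 regions, read on the forward strand 5′ to 3′ from the RefSeq genome of ce11 (WBcel235). The intronic act-5 and ifb-2 regions and the cpr-1 region, which are optimal and hold no TGATAA there, are not shown. The sequences printed therefore do not give the share of regions with a match. The first 4 are the optimal regions with TGATAA, or TTATCA on the other strand, within 50 bp of the summit, and each match is in capitals. The fifth is the optimal region nearest to the asp-1 start, which holds none. The last pair are pooled regions just upstream of pept-1 and mtl-2, shortened so that no transcribed leader is included.
elt-2 upstream, X:10480674-10480774: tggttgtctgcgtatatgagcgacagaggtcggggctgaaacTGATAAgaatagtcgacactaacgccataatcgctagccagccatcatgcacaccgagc
act-5 upstream, III:13606286-13606386: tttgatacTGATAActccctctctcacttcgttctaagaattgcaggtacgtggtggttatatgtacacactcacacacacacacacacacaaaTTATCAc
ifb-2 upstream, II:5748542-5748642: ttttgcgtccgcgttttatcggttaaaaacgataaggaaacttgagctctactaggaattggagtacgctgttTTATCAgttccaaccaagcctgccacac
asp-1 distal, V:19053426-19053526: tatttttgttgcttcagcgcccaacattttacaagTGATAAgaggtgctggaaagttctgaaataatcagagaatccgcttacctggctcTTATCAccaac
asp-1 proximal, V:19050924-19051024: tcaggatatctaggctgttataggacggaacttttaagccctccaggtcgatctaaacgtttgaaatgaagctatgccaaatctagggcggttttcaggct
pept-1 upstream, X:6456778-6456871: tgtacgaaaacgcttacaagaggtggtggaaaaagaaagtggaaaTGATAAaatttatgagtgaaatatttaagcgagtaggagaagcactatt
mtl-2 upstream, V:14018674-14018765: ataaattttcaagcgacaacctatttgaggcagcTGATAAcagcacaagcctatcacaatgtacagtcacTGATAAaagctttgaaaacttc

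Of the GATA factor genes, elt-2 had an optimal region and elt-7 did not. The gene elt-2 (WBGene00001250) lies on the forward strand at X:10481240-10483441. Its optimal region at X:10480512-10480935 was intergenic, with the summit 516 bp upstream of the start, a pooled signal of 57.1 and pooled rank 683. The overlapping regions ranked 4452 in replicate 1, with a signal of 15.1 in that list, and 408 in replicate 2, with a signal of 38.9 in that list. Their summits lay 5 and 40 bp from the pooled one, so the position was close in both lists while the place was not, at 20.9% of the list of replicate 1 and 1.83% of that of replicate 2. The strongest replicate 1 region in the elt-2 window was another one, 3478 bp upstream in the 3' UTR of C39B10.7, at rank 2503 with a signal of 18.8. The pooled region there, X:10477562-10477985, ranked 5114 with a signal of 25.5. It overlapped only rank 14168 in replicate 2, so the upstream pair of elt-2 regions were in opposite order in the replicates.

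The gene elt-7 (WBGene00015981) lies on the forward strand at V:4770670-4773086. Its window held 1 pooled region, V:4775892-4776315, with a signal of 18.05 and rank 11623. The summit lay 4266 bp from the nearer of the 2 elt-7 starts and 3018 bp past the gene's end, nearer to the start of C18G1.1 at 1856 bp. Replicate 1 had a region with the same summit at rank 10855, and a weaker one in an elt-7 intron, 469 bp upstream of the second start, at rank 17057. Replicate 2 had none in the window, so the signal at elt-7 was listed in 1 library only.

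The gut esterase gene ges-1 (WBGene00001578, V:1427653-1432137, reverse strand) has long served as a reporter of intestinal fate. It had the lowest place of the 9 genes in the pooled list. Its only pooled region, V:1433387-1433810, was intergenic, 1462 bp upstream, with a signal of 17.5 and rank 12487. In replicate 2 the overlapping region ranked 6820, with the summit 4 bp away, and in replicate 1 it ranked 19514, with the summit 413 bp away. The strongest replicate 1 region of ges-1 lay elsewhere, 771 bp upstream at rank 6601, and overlapped no pooled region of the window. The replicates thus had their strongest ges-1 regions at different positions.

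Both brush border genes had an upstream and an intronic optimal region. The actin gene act-5 (WBGene00000067, III:13604412-13606066, reverse strand) encodes the actin of intestinal microvilli. Its upstream region at III:13606124-13606547 was the strongest of all 9 genes, with a pooled signal of 65.3, rank 474 and the summit 270 bp from the start. It ranked 523 in replicate 1, with a signal of 33.2 there, and 546 in replicate 2, with a signal of 35.1 there. The places were nearly the same, 2.45% of the list in both. The intronic act-5 region at III:13605117-13605540, 737 bp into the gene, had a pooled signal of 50.7 and rank 939. It ranked 1013 in replicate 1 and 203 in replicate 2, with summits 142 and 3 bp from the pooled one. In replicate 2 the order of the act-5 regions was therefore the other way round, and the replicate 1 summit lay in a coding exon.

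The gene ifb-2 (WBGene00002054, II:5750188-5754140, forward strand) encodes an intermediate filament protein of the sheath under the brush border. Its upstream region at II:5748380-5748803 had a pooled signal of 62.8 and rank 525, 1596 bp upstream of the first ifb-2 start and 1323 bp from the start of F10C1.14. It ranked 551 in replicate 1 and 1007 in replicate 2, with summits 3 and 18 bp from the pooled one. The intronic region at II:5752825-5753248 had a pooled signal of 56.0 and rank 709. Its summit lay 2837 bp from the nearest ifb-2 start and 1431 bp from the start of F10C1.8. It ranked 1793 in replicate 1 and 503 in replicate 2, with summits 113 and 15 bp from the pooled one. The replicate 2 summit lay in an ifb-2 coding exon, and a further overlapping replicate 2 region ranked 787. As at act-5, the upstream region ranked above the intronic one in replicate 1 and below it in replicate 2. In the ifb-2 promoter window itself the pooled list held only a weak region, 794 bp upstream at rank 9373, which overlapped none in replicate 2.

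The peptide transporter gene pept-1 (WBGene00003877, X:6456872-6461767, forward strand) encodes the carrier that takes up di- and tripeptides from the gut lumen. Its strongest region at X:6456616-6457039 fell outside the optimal list, at rank 1378 of the pooled list with a signal of 44.1, where the weakest optimal region had 49.6. Its summit lay 44 bp upstream of the start. It ranked 1813 in replicate 1, with a signal of 21.2 there, and 1759 in replicate 2, with a signal of 22.7 there. The summits were 0 and 2 bp from the pooled one. The pept-1 region was thus below the optimal list but had closer summits in the replicates than any of the 8 optimal regions of these genes. The window held 7 pooled regions, and the other 6 ranked between 6199 and 15186, all inside the gene.

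Among the digestive proteases, asp-1 had its optimal regions upstream and cpr-1 beyond its end. The gene asp-1 (WBGene00000214, V:19049562-19050752, reverse strand) encodes an aspartyl protease of the gut. Its proximal region at V:19050762-19051185, 222 bp upstream, had a pooled signal of 51.6 and rank 888. It ranked 491 in replicate 1 and 3178 in replicate 2, where the summit of that strongest overlapping region was 187 bp away. A weaker replicate 2 region, with its summit nearer the proximal pooled one, ranked 12105. The distal region at V:19053264-19053687, 2724 bp upstream, had a pooled signal of 51.1 and rank 923. It ranked 946 in replicate 1 and 1051 in replicate 2, with summits 149 and 33 bp from the pooled one. A weaker replicate 1 region, with its summit nearer the distal pooled one at 2783 bp upstream, ranked 2506. By strongest overlapping region, the distal region had closer ranks in the replicates than the proximal one. A pooled region 3521 bp downstream of the asp-1 start ranked 1690, with 8097 in replicate 1 and 1028 in replicate 2. Its summit was nearer to the starts of WBGene00012680, at 184 bp, and asp-15, at 2378 bp.

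The gene cpr-1 (WBGene00000781, V:11975551-11976756, forward strand) encodes a cathepsin B-like cysteine protease. Its optimal region at V:11976686-11977109 had a pooled signal of 56.0 and rank 716. The summit lay 142 bp past the end of cpr-1, in a coding exon of mif-2, a homologue of macrophage migration inhibitory factor, and 549 bp from a mif-2 start. It ranked 6100 in replicate 1, or 28.6% of that list, and 335 in replicate 2, or 1.501% of that list. Taking the strongest overlapping replicate region, this was the widest gap between replicate ranks among the 8 optimal regions. The summits were only 10 and 5 bp from the pooled one. The replicate 2 region nearest to the proximal asp-1 summit ranked 12105, against 491 in replicate 1, so the order depends on that choice. Upstream of cpr-1, at V:11975226-11975649, a pooled region with its summit 113 bp from the start ranked 1817 with a signal of 39.1. It ranked 898 in replicate 1, with the summit 1 bp from the pooled one. The strongest overlapping region of replicate 2 ranked 3620, but its summit lay 247 bp away, 134 bp into cpr-1 in a coding exon. That is the region which the pooled neighbour inside the gene also met, and replicate 2 had no summit upstream of cpr-1 in the promoter window. The C52E4.17 start lay 42 bp from that promoter summit. Just below the optimal list, the pooled region of rank 1027, signal 49.2, lay 4521 bp from the cpr-1 start. It was 349 bp from the start of snr-4, which encodes a spliceosomal Sm protein, and 46 bp from the start of T11F9.15.

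The metallothionein gene mtl-2 (WBGene00003474, V:14018270-14018673, reverse strand) encodes a small metal-binding protein induced by cadmium in the gut. Its only pooled region, V:14018512-14018935, ranked 6601 with a signal of 23.0. The summit lay 51 bp upstream of mtl-2 and 42 bp from the start of T08G5.1, which runs the other way, so the region belongs to both promoter windows. It ranked 3990 in replicate 1, with a signal of 15.8 there, and 11718 in replicate 2, with a signal of 10.7 there. The replicate 2 summit lay 124 bp from the pooled one.

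**Figure D1:**
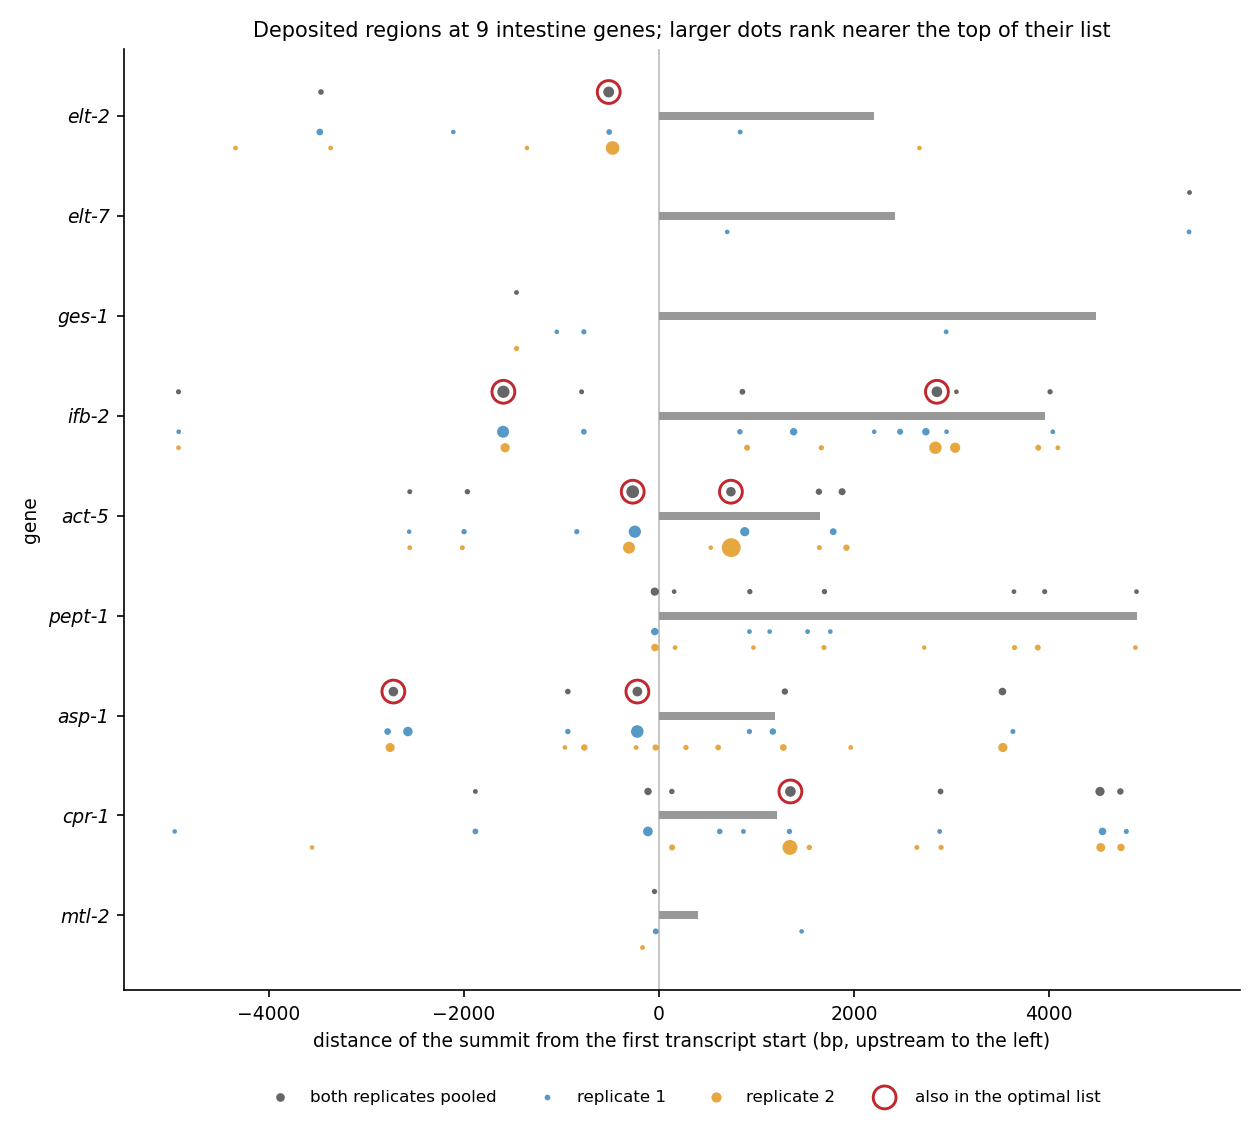
Position of every deposited region in the windows of the 9 genes, as the distance of the summit from the first transcript start in bp, with upstream to the left and genes as grey bars. Dots stand for pooled, replicate 1 and replicate 2 regions in separate rows, larger dots rank nearer the top of their list, and the 8 ringed pooled regions are also optimal. Of the ringed regions 5 lie upstream of the start, and elt-7, ges-1, pept-1 and mtl-2 have none.

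Across the 9 genes, the strongest pooled region of the gene window ranked between 474 and 12487, with a median of 888. Over the 13934 protein-coding genes with a pooled region in that window, the ranks ran from 1 to 17444 with a median of 5567. The genes fell in 3 steps. Region ranks of 474 to 888 at act-5, ifb-2, elt-2, cpr-1 and asp-1 were reached or bettered by 4.61% (act-5), 5.13% (ifb-2), 6.49% (elt-2), 6.83% (cpr-1) and 8.38% (asp-1) of all 19973 genes. The rank of pept-1 was reached or bettered by 12.2% of all genes. For mtl-2 the share was 38.9%, for elt-7 56.3% and for ges-1 58.5%, so most protein-coding genes had a region at least as strong as those of elt-7 and ges-1. Within the promoter window, the 7 genes with a pooled region had a median rank of 1378, against 6892.5 over the 5606 protein-coding genes with one. The gene windows held 1 to 7 pooled regions, with a median of 5, against a median of 1 over all genes.

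**Figure D2:**
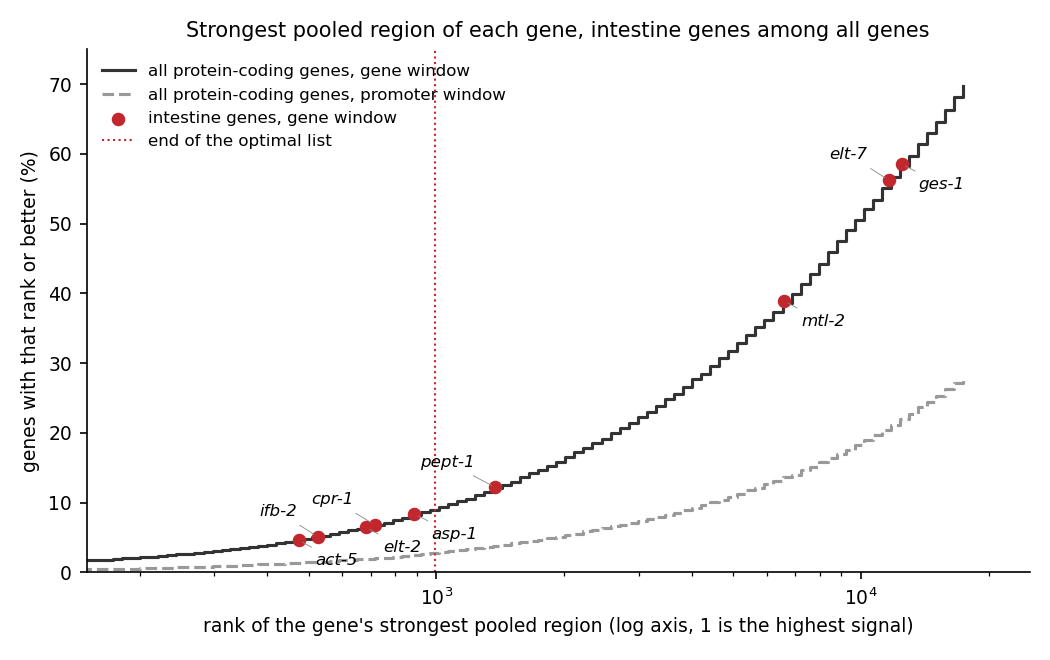
Share of all 19973 protein-coding genes (y axis, percent) whose strongest pooled region in the gene window has a given rank or better (x axis, log scale), with the intestine genes as red dots and the same curve for promoter windows dashed. The dotted line marks the end of the optimal list. Of the 9 genes, 5 lie left of that line, pept-1 lies just right of it, and mtl-2, elt-7 and ges-1 lie far down the list.

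**Figure D3:**
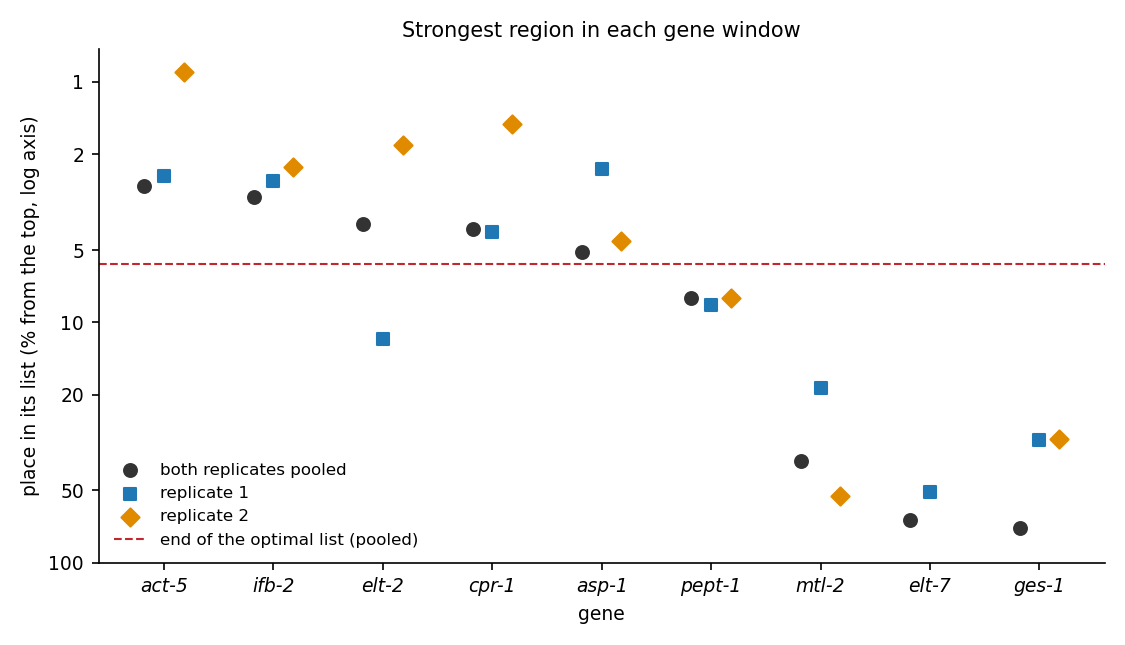
Place of the strongest region in each gene window, as percent from the top of its list (log axis, top of the list at the top), for the pooled, replicate 1 and replicate 2 lists. A missing symbol means that the list has no region in that window, and the strongest region of a gene can be a different one in each list. The elt-2 symbols lie at 11.7% in replicate 1 and 1.83% in replicate 2, while those of pept-1 lie at 8.504% and 7.882%.

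All 8 optimal regions of these genes overlapped a region in both replicate lists, but only the upstream act-5 region was in the top set of both, 1 of 8 against 54% of all optimal regions. Of the other 7, the upstream ifb-2 region and both asp-1 regions were in the top set of replicate 1 alone. The elt-2, cpr-1, intronic ifb-2 and intronic act-5 regions were in that of replicate 2 alone. None was outside both, against 5.43% of all optimal regions. These regions stood low in the optimal list, since 7 of the 8 ranked below its median. Of the optimal regions below the median, 102 (20.5%) were in the top set of both replicates, whereas of those above it 435 (87.5%) were. Several of the regions lay close to the end of a top set in 1 replicate. The upstream ifb-2 region ranked 1007 and the distal asp-1 region 1051 in replicate 2, and the intronic act-5 region ranked 1013 in replicate 1. With top sets of double the size, the count was 5 of 8, against 83.4% of all optimal regions.

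**Figure D4:**
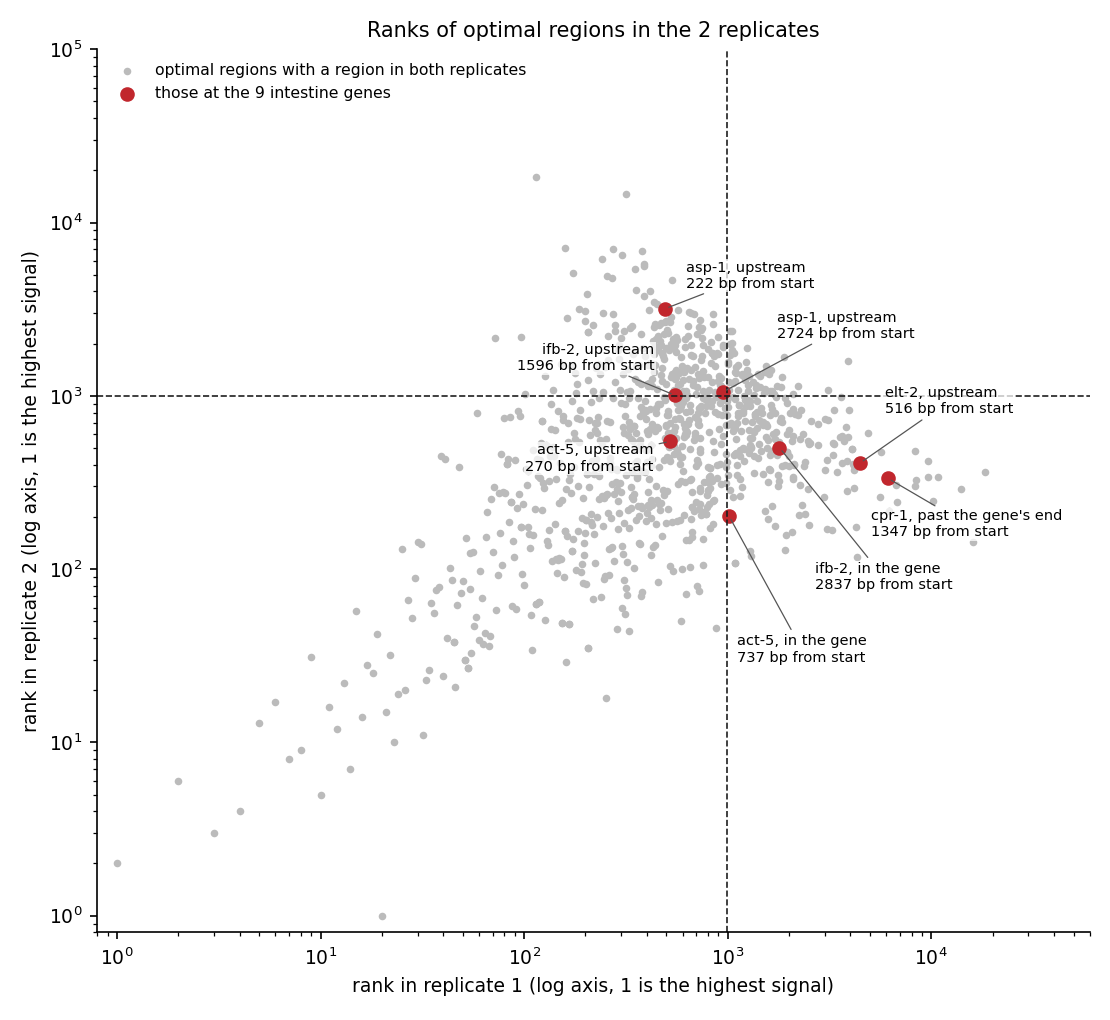
Ranks of the optimal regions with an overlapping region in both lists, in replicate 1 (x axis, log scale) and replicate 2 (y axis, log scale), with the 8 regions at intestine genes in red and dashed lines at the end of the top sets. Of the 8, only the upstream act-5 region lies left of the vertical and below the horizontal line, and the cpr-1 and elt-2 regions lie far to the right of the vertical line.

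Of the 29 further pooled regions in these windows, 23 overlapped a region in both replicates, 3 only in replicate 1 and 3 only in replicate 2. Some of the 23 shared replicate regions with a neighbour and are not separate cases. At cpr-1, for example, the pooled regions of ranks 1027 and 2911 both met ranks 1723 in replicate 1 and 1129 in replicate 2. Over all 16453 pooled regions outside the optimal list, 54.1% overlapped both, 19.97% only replicate 1 and 22.7% only replicate 2. The regions without one in replicate 2 were at elt-7, ifb-2 and cpr-1, and the 3 without one in replicate 1 were all inside pept-1. A region of a top set was overlapped by 3 of the 29, against 5.88% of all such pooled regions. These were the cpr-1 promoter region and its neighbour 131 bp into the gene, which met the same replicate 1 region of rank 898, and an ifb-2 intronic region, which met the same replicate 2 region of rank 503 as its optimal neighbour.

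By annotation, the summits of the 8 optimal regions were intergenic in 5 cases, intronic in 2 and in a coding exon in 1. Over all optimal regions 60.4% were intergenic, 25.8% intronic and 3.82% in coding exons. The GC content within 50 bp of the summit ran from 30.7 to 51.5% with a median of 41.1%, against a median of 44.6% over all optimal regions, which ran from 19.8 to 74.3%.

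The hexamer TGATAA, searched on both strands within 50 bp of the summit, was found in 4 of the 8 optimal regions, against 18.1% of all optimal regions and 13.8% of the 17447 pooled regions. The 4 are the capitals in the elt-2, upstream act-5, upstream ifb-2 and distal asp-1 sequences above. The nearest base of the match lay 3 bp from the summit at elt-2 and 23 bp at ifb-2. The distances were 37 and 44 bp at act-5, on opposite sides of the summit, and 10 and 40 bp at asp-1. No match lay in this window at the proximal asp-1, intronic ifb-2, intronic act-5 or cpr-1 regions. The shorter GATAA, which TGATAA contains, was found in 5 of the 8, adding the intronic act-5 region, against 28.5% of all optimal regions. Pooled regions outside the optimal list were mixed. The strongest pept-1 summit lay within a TGATAA, and the mtl-2 region had matches 11 and 20 bp from its summit. The only pooled regions of elt-7, rank 11623, and ges-1, rank 12487, had no match within 50 bp. At the other genes some of these regions held a match and others did not, such as asp-1 rank 3011 with 1 and ifb-2 rank 4135 with none. A match describes the letters and does not show a bound site.

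A smaller share of 37 further genes, listed by role, had optimal regions. Not all of them are gut genes, since their GATA factors include the hypodermal elt-3. Of the 37, 5 (13.5%) had an optimal summit in the gene window, against 9.31% of all genes. None had one in the promoter window, against 2.82% of all genes. The pooled list reached 32 of the 37 gene windows, against 69.8% of all genes. By role, the optimal list reached 4 of 11 digestive proteases, 1 of 8 brush border genes, and 0 of 9 GATA factors, 0 of 5 metal response genes and 0 of 4 uptake and ion transport genes. The protease gene asp-3 had the strongest region of these, with a pooled signal of 96.2, rank 157 and the summit in its own 3' UTR, 1644 bp from the start, at X:6792496-6792919. It ranked 110 in replicate 1 and 157 in replicate 2. The neighbours asp-5 and asp-6 shared 1 region, at V:8267318-8267741, with a signal of 57.6 and rank 663. Its summit lay 4855 bp upstream of asp-5, 1407 bp into asp-6 in the 3' UTR, and 1198 bp from the start of F21F8.5. At asp-2 the region, signal 54.8 and rank 756, lay 1861 bp from the start and outside the gene, in a coding exon. The filament gene ifp-1 had an intronic region, signal 54.7 and rank 760, at 569 bp from the start. The protease count thus rested on 3 separate regions, none of them in a promoter window of the listed genes.

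Of the other GATA factor genes, 8 of 9 had a pooled region in the gene window, against 69.8% of all genes, and med-1 had none. The following were chosen after their values were seen. The strongest were at end-1, which acts in endoderm specification, with rank 1502 and a signal of 42.6 at 2026 bp from the start, and at the hypodermal factor gene elt-3, with rank 1791 and a signal of 39.3 in an intron. Other entries repeat regions already described. The strongest region of elt-4 is the distal elt-2 one of rank 5114, and that of end-3 is the mtl-2 one of rank 6601. The genes elt-6 and egl-18 share their strongest region, of rank 4764, so the 8 genes are not separate cases. In the metal response list 2 of 5 genes, mtl-1 and ttm-1, had a pooled region, against the same 69.8%, with mtl-1 at rank 1867 with a signal of 38.7, 433 bp upstream of its start.

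The genes whose promoter region had replicate ranks most like those of elt-2 were found by the distance between log10 ranks over the 2 lists, among genes with an optimal summit in the promoter window. The nearest was lro-1, with rank 4153 in replicate 1, rank 372 in replicate 2 and a pooled signal of 57.0, at a distance of 0.0502. Next came C28H8.2 and tdo-2, a tryptophan dioxygenase gene, which share 1 region of ranks 3642 and 411, at 0.0873. Y55B1AR.2 followed with ranks 4095 and 491, at 0.0882. The likeness concerns 2 ranks only.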

How the data were processed

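The authors' deposited ce11 regions are in narrowPeak format, 1 list for each of 2 biological replicates, 1 pooled and 1 optimal after thresholding by irreproducible discovery rate, per the file descriptions deposited with the samples. All were derived with the same 1 control alignment. The sources used here do not give the peak caller, the aligner or that threshold. The deposited signal has no stated scale, and its depth and hence precision are unknown, so it served only to rank regions within a list. The optimal list was the 994 regions of highest pooled signal. The deposited summit offset gave positions, which are 1-based. The ce10 lists were not used here.

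The 9 genes and the 37 others were chosen with earlier results of these data known. Genes, transcripts and exons came from Ensembl release 115 (WBcel235) and sequence from RefSeq. Replicate agreement is the strongest replicate region that overlaps by at least 1 bp. Named were all 9 genes, those of the 37 others with an optimal summit, up to 4 a role, and genes with a nearer start. Also named were the 3 promoter genes nearest to elt-2 in replicate ranks, with ties included. In place of tests, counts were set beside the share of all protein-coding genes or regions that met the same rule. Alternatives covered windows, list thresholds, overlap, motif and single replicates. Scripts ran in Python 3.11.15 with pandas 2.3.3, numpy 2.4.6 and matplotlib 3.10.9 and were tested on simulated data.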

Additional observations from a re-analysis of the deposited data

How the results depend on the processing

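With the part of the optimal list above its median in its place, the count of genes with an optimal summit was 1 of 9 in the gene window, against 4.92% of all genes, and 1 of 9 in the promoter window, against 1.48%. With top sets cut to that size, 0 of 8 regions were in both, against 29.3% of all optimal regions, and with top sets of double the size 5, against 83.4%. With the top set of 1 replicate in place of the optimal list, the gene window count was 4 for either, though not for the same genes. The promoter window count was 3 in replicate 1, at act-5, asp-1 and cpr-1, against 2.82% of all genes. In replicate 2 it was 2, at elt-2 and act-5, against 2.71%. Only act-5 was reached in both. Windows of 2 and 10 kb both gave 5 genes, while the share of all genes was 5.10% and 15.6%. Counting a summit only for its nearest coding start gave 4, against 3.93%. Promoter windows reaching 500 and 2000 bp upstream gave 2 and 4 genes, against 2.10% and 3.86%. TGATAA was found in 5 of 8 regions within 100 bp, against 32.2% of all optimal regions, and in 5 of 8 whole regions, against 46.5%, so the margin over all regions was narrower than at 50 bp. The median place of the strongest region was 5.09% over the 9 genes in the pooled list and 8.504% in replicate 1. It was 3.43% in replicate 2, where elt-7 had no region and was left out. In promoter windows it was 7.90% over the 7 genes with a pooled region there, without elt-7 and ges-1. Leaving out genes without a region moves such a median toward the top of the list. The place of mtl-2 was 18.7% in replicate 1, 52.5% in replicate 2 and 37.8% in the pooled list, and for ifb-2 the promoter window gave 53.7% against 3.01% in the gene window. No paired analysis was possible because there was 1 group. Unknown depth limits what a missing region can show.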

Other observations

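At the 9 genes, the 3 optimal regions with a summit in the gene or past its end, at act-5, ifb-2 and cpr-1, all ranked nearer the top of the list in replicate 2, while of the 5 upstream regions only that of elt-2 clearly did. Over the 992 optimal regions with an overlapping region in both replicates, 124 of 239 (51.9%) in exons or introns outside promoter windows ranked nearer the top in replicate 2, against 147 of 268 (54.9%) in intergenic DNA outside promoter windows and 237 of 485 (48.9%) in promoter windows. The split seen at these 8 regions was thus not of that size over the whole list.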
